A study of Mus musculus with 2 samples.

Results

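The A530 clones are 269 RIKEN cDNA clones whose names begin with A530, the code of a library made from adult mouse aorta and vein. They were taken by probe name, as every non-control probe whose name starts with ri|A530. That rule uses no measured value, but the library was picked with earlier results of these data known. They are 269 of the 97836 non-control probes on the array, which also holds 15406 other RIKEN clone probes. The RNA measured did not come from aorta or vein. It came from mammary glands of female mice, called breast tissue in the labels, and the library name says where a clone was first isolated. The control gland had floxed alleles of the microRNA miR-34a (miR-34a fl/fl), and the knockout gland (miR-34a -/-) came from such mice crossed to a line that expresses Cre recombinase specifically in the mammary gland. The labels used here give neither the promoter of the Cre, nor the age of the mice, nor whether a gland RNA was pooled, nor which cells of the gland lost miR-34a. Each genotype was measured on 1 one-colour Agilent array, so there was no replicate, no test was made and no p-value is given. Every difference describes these 2 glands.

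RIKEN clones are copies of single RNA molecules that were taken from a tissue and sequenced at full length, and many of them represent long non-coding RNAs or unspliced and intronic transcripts of coding genes. The wall of an artery or vein has an inner lining of endothelial cells, a layer of contractile smooth muscle and an outer sheath of fibroblasts, nerves and often fat. The mammary gland is laid out in a fat pad that is rich in blood vessels, so vessel-derived transcripts can be present there together with transcripts of fat, epithelium and immune cells. MicroRNAs such as miR-34a, a target of the tumour suppressor p53, pair through their seed with sites in other RNAs and lower their amount or translation. In bulk tissue, fewer cells of a type and less RNA per cell cannot be told apart.

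The mature product of the deleted gene is shown because its seed, bases 2 to 8 in capitals, is what a transcript would have to match (RefSeq, GRCm38.p6, plus strand, chr4:150068473-150068494).
mmu-miR-34a-5p: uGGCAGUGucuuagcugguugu
Whether an A530 clone holds a site for this seed was not analysed here, since neither the clone nor the probe sequences are in the sources used here.

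Most A530 clones gave a signal in both mammary glands. Each clone had 1 spot per array, and 2 clones were left out because their spot carried an outlier mark. Of the 267 usable clones, 231 (86.5%) gave a spot well above background with control RNA and 223 (83.5%) with knockout RNA. Of the other RIKEN probes, 77.1% and 74.7% of 15351 were, and of all 97373 usable probes 75.5% and 73.2%. In all, 220 A530 clones were measured on both arrays, 11 on the control array only, 3 on the knockout array only and 33 on neither. The 220 are 82.4% of the usable clones, against 72.5% of the other RIKEN probes and 71.3% of all probes. Among the 49 RIKEN libraries with at least 100 usable probes this share ran from 51.2% to 91.8% with a median of 75.5%, and A530 was the 6th highest. The processed signal, which is background-subtracted spot brightness, ran from 2.83 to 4162 in the control gland with a median of 92.0, and from 2.62 to 10988 in the knockout gland with a median of 76.9. The errors that the scanner software gives for the 2 lowest values, 2.84 and 2.64, are as large as the values, so these are not readings of an amount. No A530 spot was saturated. The 33 clones seen on neither array had signals of at most 16.7 in the control gland and 14.6 in the knockout gland.

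**Figure D1:**
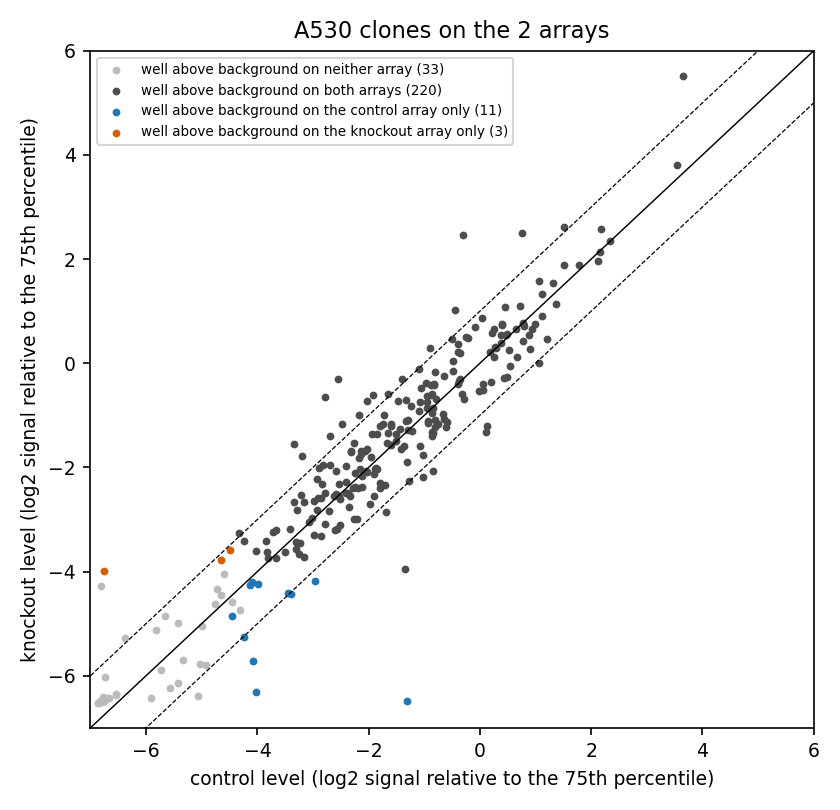
Level of each usable A530 clone in the control gland (horizontal axis) and the knockout gland (vertical axis), on a log2 scale with the 75th percentile of each array at 0, with 1 point per clone and colours for detection. The solid line marks equal levels and the dashed lines a 2-fold difference, and most of the 220 clones measured on both arrays lie between the dashed lines, while A530061H09 stands far below them among the 11 clones seen on the control array only.

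The level of a clone is given here as its log2 signal minus the 75th percentile of its array. It ranks probe signals and not amounts of RNA, since probes bind with different strength. Among probes measured on both arrays the A530 clones were not unusually bright. That base holds a larger share of the usable A530 clones (82.4%) than of the other RIKEN probes (72.5%). Of the 220 clones, 14 (6.36%) lay above the 90th percentile of levels over RIKEN probes measured on both arrays, against 10.1% of the other RIKEN probes. The median mean level over both arrays was -1.34 for the A530 clones, -1.29 for the other RIKEN probes and -0.89 for all probes. The 10 brightest clones held 30.3% of the summed A530 signal in the control gland and 42.1% in the knockout gland. Without the brightest of them, A530014M23, the other 9 held 24.9% and 28.0% of the remaining sum.

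The brightest A530 clone, A530014M23, was also among the largest increases. Its processed signal was 4162 ± 416 in the control gland and 10988 ± 1099 in the knockout gland, where ± is the error that the scanner software gives for a single spot. After scaling it stood at 3.66 in the control and 5.51 in the knockout, a 3.60-fold difference (log2 1.85). Its mean level was at percentile 99.6 of the RIKEN probes. The clone next to it in brightness, A530058L02, stood at 3.55 and 3.80 (1.19-fold higher in the knockout). These were the 2 A530 clones above the 99th percentile, and when the spike-in transcripts added to both RNAs were made equal A530058L02 lay at -0.10 on the log2 scale. A530020K18, at 2.34 in both glands, and A530009B11, at 2.16 in the control and 2.14 in the knockout, were level. A530090C13 stood at 2.18 and 2.58, A530014A01 at 2.12 and 1.97, A530048E20 at 1.78 and 1.89, and A530080E04 at 1.51 and 1.89, control first. The remaining members of the brightest 10 were higher in the knockout: A530044E23 by 2.17-fold, with signals of 935 and 1485, and A530068D08 by 3.34-fold, at 0.75 and 2.49. Of the brightest 10, then, 3 were at least 2-fold higher in the knockout, 0 were at least 2-fold lower and 7 lay within 1.5-fold. None of these 10 clones matched a gene in the RefSeq gene table, so what they encode is not given here.

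Differences of at least 2-fold between the glands were called by size. Of the 220 A530 clones measured on both arrays, 18 (8.18%) were at least 2-fold higher in the knockout and 7 (3.18%) at least 2-fold lower. Over all 69405 probes measured on both arrays the background was 4.45% higher and 4.54% lower, and over the 11127 other RIKEN probes it was 4.14% higher and 4.68% lower. With the other RIKEN probes weighted to the same spread of signal as the A530 clones, in 20 bins of mean level, 4.15% were higher and 4.90% lower. At that rate 220 clones would hold 9.13 higher and 10.8 lower. The A530 share of higher clones thus lay above, and its share of lower clones below, those of all 3 comparison sets. At a limit of 1.5-fold, 44 A530 clones (20%) were higher and 23 (10.5%) lower, against 14.9% and 10.9% of all probes and 13.7% and 12.7% of the other RIKEN probes. Whether the split exceeds the variation between animals could not be tested with 1 gland per genotype.

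Most clones lay near 0. The median log2 difference, knockout minus control, was 0.09 for the A530 clones, 0.04 for other RIKEN probes of like signal and 0.10 for all probes. With a loess curve between the arrays the A530 median was -0.0013. Of the 220 clones, 128 (58.2%) lay above 0, against 53.1% of other RIKEN probes of like signal and 58.6% of all probes. The middle of the distribution, from the 25th to the 75th percentile, ran from -0.24 to 0.46 in A530. It ran from -0.32 to 0.36 in other RIKEN probes of like signal and from -0.23 to 0.41 in all probes. The 10th and 90th percentiles were -0.60 and 0.84 in A530, -0.70 and 0.69 in those other RIKEN probes and -0.62 and 0.72 in all probes. In size, 153 clones lay within 1.5-fold, 26 were higher and 16 lower by 1.5-fold to 2-fold. A530043E24, the clone nearest the A530 median, stood at -2.59 in the control and -2.50 in the knockout.

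By level, the A530 clones and the other RIKEN probes lay closest in the share of higher calls among dim probes. In the lowest of 3 parts by mean level (74 clones), 4 clones (5.41%) were at least 2-fold higher and 2 (2.70%) lower, against 5.48% and 5.63% of other RIKEN probes in the same range of level. In the middle part (72 clones), 8 (11.1%) were higher and 2 (2.78%) lower, against 3.58% and 4.95% of the others. In the highest part (74 clones), 6 (8.11%) were higher and 3 (4.05%) lower, against 3.65% and 3.96%. The number in the last field of a RIKEN probe name, taken here as the clone's length in bases, showed no ordered change in the median. In the part with the lowest numbers, 233 to 1400, 8 of 73 clones were higher and 4 lower with a median log2 difference of 0.05. In the middle part, 1417 to 2453, 6 of 73 were higher and 2 lower with a median of 0.01. In the part with the highest, 2486 to 5168, 4 of 74 were higher and 1 lower with a median of 0.27. Both counts of called clones were thus largest in the part with the lowest numbers and smallest in that with the highest. The share of other probes called by this number was not computed, so these counts have no background beside them.

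**Figure D2:**
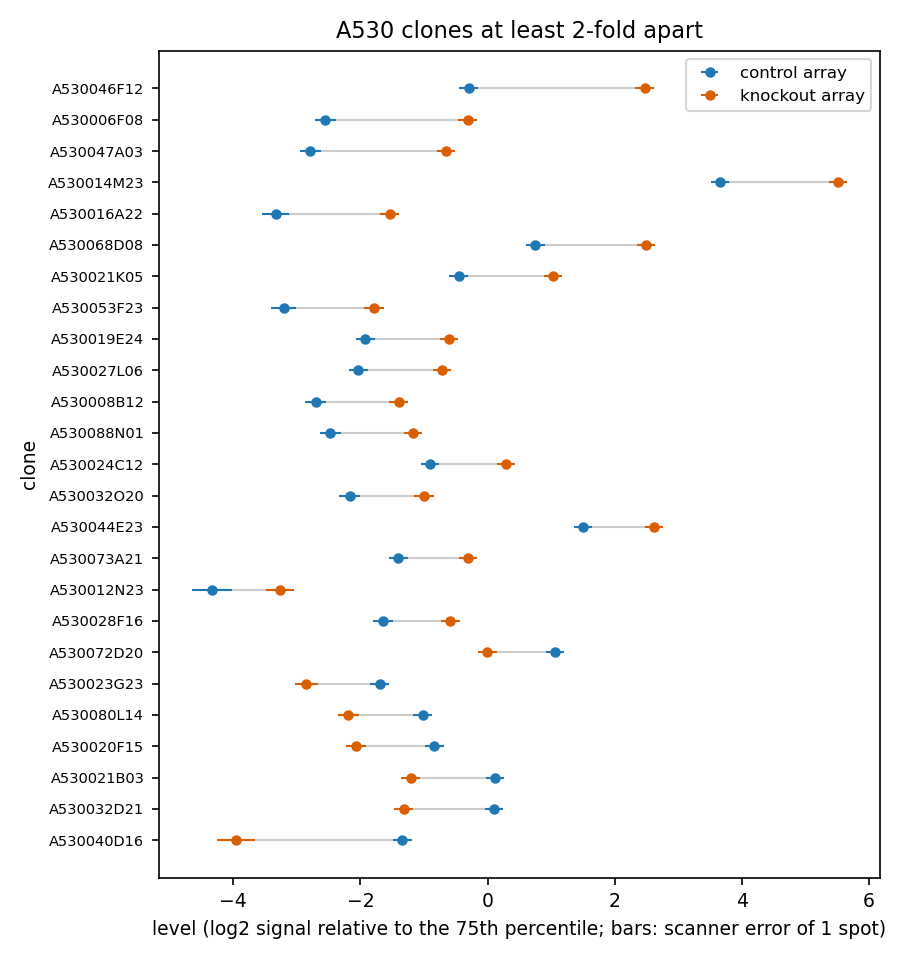
Levels of the 25 A530 clones that were at least 2-fold apart, in the control gland (blue) and the knockout gland (orange), on the same log2 scale, with bars for the scanner error of 1 spot. The 18 clones at the top were higher in the knockout, led by A530046F12, and the 7 at the bottom were lower, with A530040D16 the farthest apart.

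A530046F12 had the largest increase. Its processed signal was 268 ± 27.0 in the control gland and 1337 ± 134 in the knockout gland. Scaled, it stood at -0.30 and 2.47, a 6.81-fold difference with a scanner error of 0.20 on the log2 difference of 2.77. A530006F08 was 4.73-fold higher, from a signal of 56.2 ± 6.53 to 195 ± 19.7, and A530047A03 was 4.39-fold higher, from 47.8 ± 5.59 to 154 ± 15.6. These were the 3 A530 clones at least 4-fold higher, 1.36% of the clones measured on both arrays, against a background of 0.386% of all probes and 0.413% of the other RIKEN probes. Below them came A530014M23, described above, and A530016A22, which was 3.46-fold higher at -3.33 in the control and -1.54 in the knockout. A530068D08 followed at 3.34-fold. A530021K05 was 2.79-fold higher (signals 241 and 492, control first), A530053F23 2.67-fold (35.7 and 70.0), A530019E24 2.49-fold (87.1 and 159) and A530027L06 2.48-fold (80.7 and 147). The 8 other clones called higher lay between 2.08-fold and 2.47-fold, from A530028F16 to A530008B12. They included the called clone with the lowest mean level, A530012N23, with signals of 16.3 ± 3.59 and 25.2 ± 3.81. No clone of the 18 matched a gene.

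In the other direction A530040D16 was 6.13-fold lower. Its signal was 130 ± 13.4 in the control gland and 15.6 ± 3.21 in the knockout gland, the latter close to the lowest signal of an A530 clone well above background on that array, 15.3. A530032D21 was 2.68-fold lower, with signals of 353 ± 35.5 and 96.8 ± 10.1, and A530021B03 2.51-fold lower, with 358 ± 35.9 and 104 ± 10.8. A530020F15 (2.34-fold), A530080L14 (2.25-fold), A530023G23 (2.22-fold) and A530072D20 (2.09-fold) completed the 7. A530072D20 was the brightest of them, at 1.06 in the control and 0.00 in the knockout. A530040D16 was the single A530 clone at least 4-fold lower (background 1.02% of all probes and 0.656% of the other RIKEN probes). A530092C02, at 1.99-fold lower, lay just under the limit. A530027B01 (1.73-fold) and A530060B03 (1.69-fold) had the next largest decreases.

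Of the 195 clones under the 2-fold limit, 68 also differed by more than 2 times the scanner error of their difference (median error 0.21 on the log2 scale). The share of other probes past this limit was not computed, so the 68 have no background beside them. For A530 clones well above background, the scanner error had a median of 10.3% of the signal in the control and 10.4% in the knockout. It stayed near that share in bright clones, so it is not read here as a measured precision of each spot. It does not cover animals, dissection or labelling. Since each A530 clone had a single spot, how a call repeats was read from other RIKEN probes with 2 spots per array. Of 133 such probes called higher from their first spot alone, 83 (62.4%) were past 2-fold in the other spot too and 132 had the same sign. Of 163 called lower, 103 (63.2%) were past 2-fold in the other spot and 159 had the same sign. A spot past 2-fold the same way has the same sign by definition, so direction could not repeat less often than the call. Both spots lie on the same 2 arrays, so their repeat does not bear on the difference between glands. Of the called A530 clones, 4 of the 18 higher and 1 of the 7 lower were within 2.2-fold.

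Many of these calls changed with how the spot signal was computed. With median spot signals, normexp background correction and an added offset of 50, which together replaced the processed signal, 7 clones were at least 2-fold higher and 2 lower, and with no background correction 15 and 4. Of all probes, 1.89% were higher and 2.23% lower with normexp, and 2.56% and 2.67% with no background correction. A530046F12 stayed at 2.41 and 2.52 on the log2 scale and A530014M23 at 1.78 and 1.81, while A530040D16 went to -0.98 and -1.28, A530006F08 to 1.46 and 1.73 and A530047A03 to 1.38 and 1.71. With the spike-ins made equal, every difference moved by -0.36. Under that scaling 8 A530 clones were higher (3.64%) and 16 lower (7.27%), and the A530 median was -0.27. Of other RIKEN probes of like signal 1.74% were higher and 11.4% lower, and of all probes 1.82% and 9.61%. With scaling to the median or to quantiles, and in the authors' deposited table, the counts stayed 18 and 7. Median scaling and the deposited table change all differences by a near-zero constant only, so these could hardly move a count. With a loess curve the counts were 16 (7.27%) and 8 (3.64%), against 3.37% and 5.38% of all probes. With normexp, with no background correction and with the spike-ins made equal, the A530 share of higher clones was above that of other RIKEN probes of like signal. The share of lower clones was below theirs with normexp (0.909% against 1.42%) and with the spike-ins, and level with it with no background correction (1.82% against 1.83%).

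**Figure D3:**
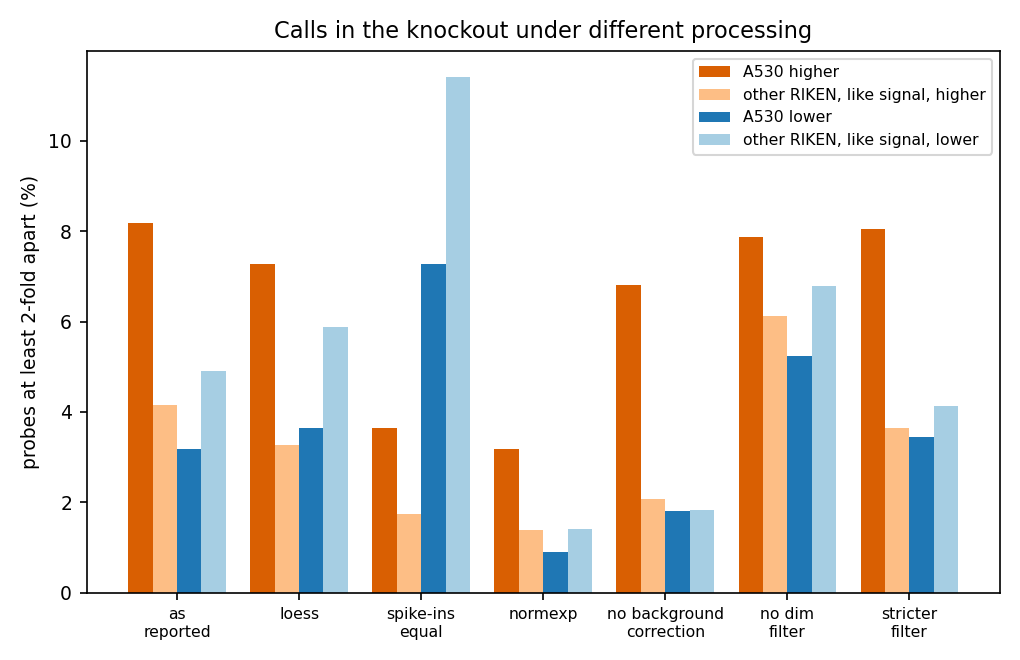
Share of probes at least 2-fold higher (orange) or lower (blue) in the knockout, in percent, for A530 clones (dark bars) and other RIKEN probes weighted to like signal (light bars), as reported and under 6 other ways of processing. The dark orange bar stands above the light orange bar in each setting shown, from 8.18% against 4.15% as reported to 3.18% against 1.38% with normexp, and all bars move with the setting.

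Set beside the other RIKEN libraries, A530 had the highest share of clones at least 2-fold higher. Across the 49 libraries with at least 100 usable probes this share ran from 1.25% to 8.18% with a median of 3.81%, and the library next to A530, C530, had 7.69% (7 of 91). The share of lower clones ran from 1.14% to 8.49% with a median of 4.42%, and A530 was the 37th from the top. By median log2 difference A530 was the 14th, in a range from -0.09 to 0.23. The counts behind these shares are small, so the order of neighbouring libraries carries little weight, and no test of the order was made. A530 was picked with earlier results of these data known, so its place in the order does not stand as separate evidence.

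**Figure D4:**
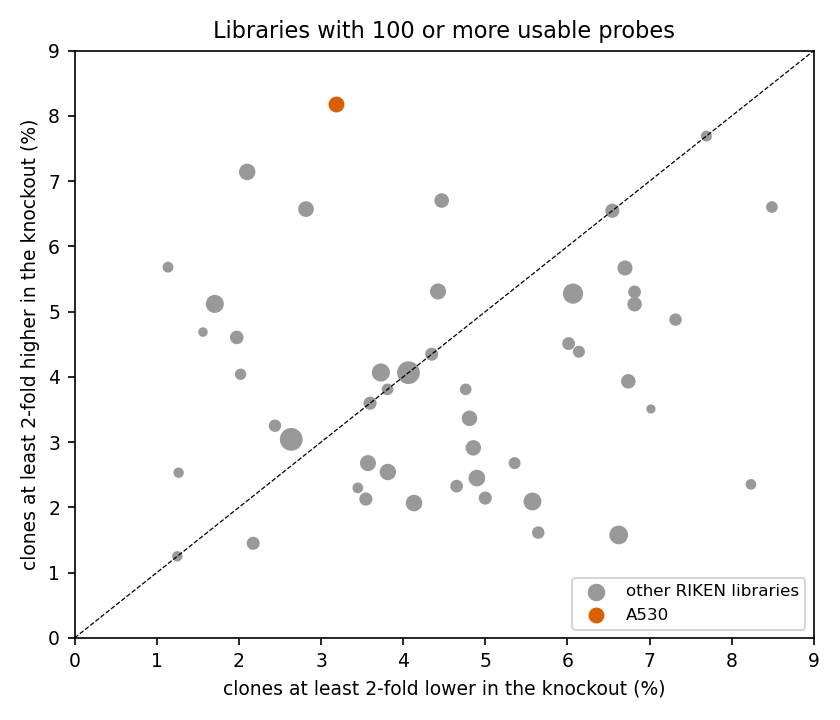
Share of clones at least 2-fold lower (horizontal axis) and at least 2-fold higher (vertical axis) in the knockout for each of the 49 RIKEN libraries with at least 100 usable probes, in percent of probes measured on both arrays, with point area proportional to their number. A530 (orange) lies at 3.18% lower and 8.18% higher, above the dashed line of equal shares.

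Clones seen in a single gland were few and mostly dim. On the control array only there were 11 (4.12% of the usable clones), against a background of 2.52% of all probes and 3.83% of other RIKEN probes. On the knockout array only there were 3 (1.12%), against 1.08% and 1.9%. Such a clone has a bound, its level minus the higher of its own dim level and the lowest level well above background on the other array. A530061H09 stood apart from the rest: its signal was 134 ± 13.7 in the control gland and 2.70 ± 2.71 in the knockout gland, a bound of at least 7.41-fold lower. The knockout value has an error as large as itself, so the bound rests on the lowest level well above background. A530084G08, with signals of 42.4 and 13.4, was at least 2.32-fold lower. A530052K18 (at least 1.74-fold), A530099O11 (at least 1.67-fold) and A530083I20 (at least 1.16-fold) followed. Of the 11 clones, 2 had a bound of at least 2-fold, 7 a smaller one, and 2 were too close to background for a bound. On the knockout side A530052B19 (at -4.49 and -3.59) was at least 1.85-fold higher, A530054D11 (13.1 and 17.6) at least 1.68-fold and A530087A06 (3.05 ± 3.07 and 15.3 ± 3.14) at least 1.45-fold.

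The 2 clones with an outlier mark were A530099A19, marked on both arrays with signals of 2180 in the control and 3714 in the knockout, and A530088H03, marked on the knockout array with signals of 498 and 497. With marked spots kept, A530099A19 was 2.32-fold higher and A530088H03 1.36-fold higher. A530099A19 would then be a 19th clone called higher.

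Of the 269 clones, 11 matched a gene in the RefSeq gene table through the clone name, 6 of them protein-coding and 5 lncRNA genes, and 258 stayed unnamed. Among the 10 matched clones measured on both arrays, 7 lay above 0, 3 below and 0 were at least 2-fold apart, with a median log2 difference of 0.36. Under spike-in scaling 5 of the 10 lay above 0. A probe made for a clone need not read the main transcript of its gene.

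Among the protein-coding genes, the clone of Zmpste24, the protease that trims prelamin A into mature lamin A, was the brightest, with signals of 449 ± 45.0 in the control and 512 ± 51.2 in the knockout. It was 1.55-fold higher after scaling, at 0.45 and 1.08. The clone of C7, a late complement component of the membrane attack complex, was 1.27-fold higher at signals of 41.8 and 38.8. There the raw signal was slightly lower in the knockout, and under spike-in scaling the log2 difference was -0.01. The clone of Ankhd1, an ankyrin-repeat protein, was 1.44-fold higher, at -2.59 and -2.06. The clone of Usp34, a deubiquitinating enzyme, was 1.78-fold higher but dim, with signals of 17.4 and 22.8, and its locus overlaps Ahsa2. Zfp91, a zinc finger protein, and Lpxn, the focal adhesion adaptor leupaxin, overlap each other in the gene table. The Zfp91 clone stood at -1.86 in the control and -2.04 in the knockout, and a RIKEN clone of Zfp91 from another library, 9130014I08, at 1.28 and 1.15. The log2 differences of the 2 Zfp91 probes were -0.18 and -0.13, and that of the A530 clone was 0.01 with normexp. The Lpxn clone was not well above background in either gland, with signals of 10.9 and 4.34.

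Among the lncRNA genes, A530072M11Rik was the brightest, with signals of 718 and 609 and levels of 1.12 in the control and 1.33 in the knockout (log2 difference 0.21, and -0.15 under spike-in scaling). It lies between Ripk2 and Mmp16. Lncbate10, whose nearest coding gene on 1 side is Ppargc1b, a coactivator of mitochondrial genes, stood at 0.93 and 0.65, 1.22-fold lower. A530053G22Rik was 1.35-fold higher, at -1.59 and -1.16. A530046M15Rik, which lies between the coding genes Gli3 and Inhba and overlaps the lncRNA gene B230303A05Rik, was 1.29-fold higher, at -2.02 and -1.65. A530001N23Rik, between Gas1 and Dapk1, was 1.51-fold lower, at -2.61 and -3.21, and with normexp its log2 difference was -0.06. None of the 5 was past 2-fold.

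The 250 bases upstream of the start are shown for the 3 lncRNA genes that keep an A530 clone name and have an entry in the promoter table (RefSeq, GRCm38.p6), so that the loci these clones name can be read. Capitals mark matches, on either strand, to the TATA element TATAAA, the CCAAT element, the GC box GGGCGG or the CArG box, the element bound by serum response factor in smooth muscle genes. The windows are chr13:60508841-60509090 (minus strand), chr13:15806993-15807242 (plus strand) and chr6:60403708-60403957 (minus strand), each written 5′ to 3′ on the strand of its gene.
A530001N23Rik: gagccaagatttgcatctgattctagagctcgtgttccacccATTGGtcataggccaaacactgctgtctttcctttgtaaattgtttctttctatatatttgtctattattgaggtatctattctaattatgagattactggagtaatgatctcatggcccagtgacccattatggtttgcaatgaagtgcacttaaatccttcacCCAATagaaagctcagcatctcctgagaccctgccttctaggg
A530046M15Rik: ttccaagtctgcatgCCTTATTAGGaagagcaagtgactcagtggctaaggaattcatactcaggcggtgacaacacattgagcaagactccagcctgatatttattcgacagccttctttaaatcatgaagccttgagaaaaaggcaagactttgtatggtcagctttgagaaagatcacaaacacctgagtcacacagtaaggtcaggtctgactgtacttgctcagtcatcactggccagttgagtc
A530053G22Rik: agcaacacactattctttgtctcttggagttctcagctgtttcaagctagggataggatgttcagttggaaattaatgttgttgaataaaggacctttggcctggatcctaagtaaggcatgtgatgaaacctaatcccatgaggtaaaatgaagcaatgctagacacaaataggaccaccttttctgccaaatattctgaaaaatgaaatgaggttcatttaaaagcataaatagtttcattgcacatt
The A530001N23Rik window held 2 matches to CCAAT, 1 on each strand, at 208 to 204 and 43 to 39 bases before the start. The A530046M15Rik window held a CArG box 235 to 226 bases before the start, where both strands match the motif, and the A530053G22Rik window held none of the 4 motifs. Of 32851 windows of 250 bases in the table, 33.8% held CCAAT, 32.7% GGGCGG, 12.4% TATAAA and 1.47% a CArG box. The GC content of the 3 windows was 40.8%, 44.4% and 36.8%. These matches describe letters, and the 3 clones differed by at most 1.51-fold between the glands.

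Markers of the vessel wall and of the other cells of the gland could hardly be read on these arrays. Of 125 marker genes in 9 lists, 4 had a probe that could be named and 3 were measured on both arrays. None of the 23 endothelial and 17 fibroblast markers had a named probe. Of the 20 smooth muscle and pericyte markers, Rgs5, a pericyte regulator of G protein signalling, was level at 2.45 in the control and 2.32 in the knockout. Synpo2, an actin-binding protein of muscle, was lower at both of its probes, with log2 differences of -1.17 and -1.54. Pde3b, a phosphodiesterase through which insulin restrains the breakdown of fat, was the 1 of 14 adipocyte markers measured. It was higher in the knockout, at -2.27 in the control and 0.32 in the knockout, a log2 difference of 2.59. Esr1, of the epithelial list, was not measured on both arrays. No matched A530 clone belonged to a marker gene or lay next to one. The part of cell makeup in the A530 differences was not tested.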

How the data were processed

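Total RNA of 2 mammary glands was labelled with Cy3 and hybridised, per the labels' protocols. The deposited intensity values are Agilent Feature Extraction output (version 10.7 per the submitters' processing notes, 11.5.1.1 per the file headers), background-subtracted, with no scaling across arrays. The log2 values of the authors' deposited table equal, for all A530 probes, log2 of that signal minus 8.40 (control) or 7.95 (knockout), within 0.0001. Its columns have medians of -1.94 and -1.95.

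Spots of control type or with an outlier mark were left out. Each probe had the mean log2 signal of its spots, from which the 75th percentile over 97373 probes usable on both arrays (8.36 and 7.92) was subtracted. A probe was measured when all its spots were well above background (77.3% and 75.4% of non-control spots). Calls used a 2-fold limit, with no test. Gene names came from a RefSeq table of GRCm38.p6, used for names, neighbours and the promoter table only, since the array design names another build. The rule for the members uses probe names only, but the library and the gene lists were picked with earlier results of these data known. Clones named were the 10 brightest, the 10 largest changes each way, the 5 largest bounds each way and the clone nearest the median. Matched genes (none was 2-fold apart) and the clones with an outlier mark were added after their values were seen. Weighting and calls were run on simulated data with known changes and no variation between glands. That run checks the code only and does not bear on how reliable the A530 calls are. Tools were limma 3.58.1 in R 4.3.3 (normexp, offset 50), and pandas 2.3.3 and numpy 2.4.6 in python 3.11.15. Alternatives were other scalings, background corrections, filters and limits.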

Additional observations from a re-analysis of the deposited data

How the results depend on the processing

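Of the 18 clones called higher, all 18 stayed at least 2-fold higher with median scaling, quantile scaling, the authors' deposited table and marked spots kept, 16 with a loess curve, 14 with no background correction, 8 with the spike-ins set equal and 7 with normexp. Of the 7 called lower, all 7 stayed in the first 4 of these, with loess and with the spike-ins, 4 with no background correction and 2 with normexp. Median scaling, the deposited table and keeping marked spots change these differences by a near-zero constant only, so the calls could hardly move there. No called clone changed sign. Each call was at least 2-fold, and most of these settings shift all differences alike or shrink them, so a change of sign was hardly possible. Counts of higher and lower clones were 8 and 16 with the spike-ins set equal (median log2 difference -0.27), 7 and 2 with normexp, 15 and 4 with no background correction, 21 and 14 with no filter on dim probes, 7 and 3 of 87 clones with a stricter filter, 44 and 23 at 1.5-fold, and 3 and 1 at 4-fold. The normexp offset of 50 shrinks differences of dim spots by its construction, and the stricter filter leaves fewer clones. Elsewhere the cause was not tested. With a loess curve the A530 median was -0.0013. The A530 median minus that of other RIKEN probes of like signal lay between 0.04 and 0.07 in all settings. Taking 10 bins, bins of the control level, no weighting, or other RIKEN probes with 1 spot only (an alternative added after the data were seen) gave 4.02% to 4.37% of other RIKEN probes higher. Requiring a signal of at least 5 times its scanner error, also added later, gave 17 and 6 of 217 clones. These were 7.83% and 2.76%, against 4.35% and 4.44% of all probes. Of 312 log2 differences of single named clones under the other scalings, the other background corrections and with marked spots kept, 233 stayed within the scanner error of the value reported. Dim clones lie close to background, and their values rest on 1 spot per array. No paired analysis was possible because each genotype has 1 sample.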
